A study of Arabidopsis thaliana with 8 samples.

Results

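The drought response of Arabidopsis plants overexpressing a grapevine WRKY transcription factor was set against the drought response of wild-type plants. The quantity described is the log2 change under drought in overexpressing plants minus the log2 change under drought in wild-type plants, computed for every gene from all 8 of the 8 RNA sequencing libraries of the series. A positive difference means that the gene's drought response was higher, or less negative, in the overexpressing plants. The 4 groups, of 2 libraries each, were droughted overexpressing plants (OE, VaWRKY14), OE plants with normal watering, droughted wild-type plants (WT) and WT plants with normal watering. All were Columbia-0 plants aged 3 weeks, labelled as whole plants, and drought meant 5 days without water. The OE material is described as a mixture of transgenic plants, and the promoter of the transgene is not given in the sources used here. One droughted OE library, replicate 1, carries a genotype label naming VaWRKY15, against its title, and was kept as OE. Nothing in the labels says that libraries of a group came from separate plants, so the p-values below may measure a spread that is partly technical.

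WRKY proteins are plant transcription factors that bind W-box elements in promoters, and many act in immunity, senescence and responses to drought. Water deficit raises abscisic acid, which closes stomata and turns on genes for protective proteins, while growth and photosynthesis genes are lowered. Salicylic acid and jasmonate are the main hormones of plant immunity, and receptor-like kinases and receptor-like proteins sense microbes and damage at the cell surface.

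Library totals lay between 9591274 and 11378571 expected counts, and 19259 genes passed the filter on low counts. Levels are given in CPM, which are counts relative to TMM-scaled library sizes, on which 3 counts correspond to 0.242 to 0.313 CPM. In a principal component analysis the first watered WT library stood apart on the second component, at -27.66, while the other 7 libraries lay between -6.63 and 16.23. The label gives whole plants. Of 11 root markers, 4 were at 0 in every library (PLT1 and PLT2 of the root tip, COBL9 and EXP7 of root hairs) and 7 had a count in at least 1 library. Of those 7, 3 passed the filter and were counted in every library. These were SHR (126 to 212 counts), SCR (303 to 383) and ESB1 (36 to 89). The transgene itself was not analysed here.

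The difference of the responses was called for 31 genes (edgeR quasi-likelihood test, adjusted p under 0.05), which is 0.161% of the genes tested. It was higher in OE plants for 19 genes (0.0987%) and lower for 12 genes (0.0623%). Of the 31 genes, 28 differed by at least 1 on the log2 scale. At an unadjusted p under 0.05 the difference was higher for 1104 genes (5.73%) and lower for 1303 genes (6.77%), and over all genes tested its median was -0.01. The number called depended on single libraries: it was 2 with the second droughted OE library left out, 7 with the second droughted WT library left out and 13 with the first watered OE library left out. It was 142 without the second watered OE library, 326 without the second watered WT library and 51 without the first watered WT library. Without the first droughted OE library 7 genes were called higher and 14 lower, and without the first droughted WT library 35 higher and 9 lower. No call of the 31 survived all 8 omissions. All 31 genes kept the sign of their difference in every one of these fits, which share most libraries with the fit that chose them. GLYI4, GLN1;4, AT5G25240 and AT1G23050 stayed called in 7 of the 8, and AT1G35710 and RLK1 in 6. Another 4 genes (AT1G10340, AT1G34060, AT4G03450 and AT5G42830) stayed called in 5 omissions and 7 (AT1G03220, AT1G21313, OPR2, LURP1, AT2G29300, RLP34 and RLP36) in 4. The calls of EXT3, AT1G56120, BEE3, LGO, SWEET2, AT3G59580, XBAT34 and AT5G42200 held in 3, and those of AT1G09932, AT1G47980, CYP704B1, AT2G15880, WRKY53 and AT5G59080 in 2. Leaving out the second droughted OE or the second droughted WT library kept 2 of the 31 calls each, and leaving out the second watered WT library kept all 31. DESeq2 did not call AT1G09932 (adjusted p = 0.0596). With limma on log2(FPKM + 1) 13 calls were lost, at adjusted p values of 0.0516 to 0.136: AT1G21313, AT1G47980, AT1G56120, AT4G03450 and WRKY53 among the genes called higher, and BEE3, OPR2, LGO, AT2G15880, AT2G29300, AT3G59580, AT5G42200 and AT5G59080 among those called lower.

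Flower genes moved with the same contrast. The 10 floral organ identity genes tested, of 12 listed, summed to 93.0 and 71.4 CPM in the droughted OE libraries and 21.1 and 39.0 CPM in the watered OE libraries. In WT they summed to 47.7 and 54.5 CPM under drought and 38.4 and 31.7 CPM with water. The droughted OE libraries were the highest of all and the first watered OE library the lowest. None of the 12 was at 0 in every library. With the mean log2 level of these genes as a covariate, a fit added after the data were seen, 1 gene was called and none of the 31 calls was kept. That covariate itself followed the contrast under test, at 3.13 and 2.8 in droughted OE and 0.709 and 1.87 in watered OE libraries. In WT it was 2.2 and 2.29 under drought and 1.92 and 1.68 with water. It also took 1 of the 4 residual degrees of freedom, so calls could be lost for these reasons alone. The cause was not tested. In bulk tissue, fewer cells of a type and less RNA per cell cannot be told apart.

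Genes called for drought in both genotypes nearly all moved the same way. Under drought 3214 genes were called in OE plants (16.7% of those tested) and 2505 in WT plants (13%), and these comparisons share no library. In all, 1270 genes were called in both, 39.5% of the OE calls and 50.7% of the WT calls, of which 1258 had the same sign and 12 opposite signs. Across the genes tested the 2 responses correlated with a Pearson r of 0.525 and a Spearman rho of 0.52, which describes genes of the same libraries and not independent replicates. Of the genes called in 1 genotype and not in the other, 1944 in OE and 1235 in WT, the difference itself was called for 7 and 14 genes, 0.661% of them. A response called in only 1 genotype was therefore seldom a called difference.

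**Figure D1:**
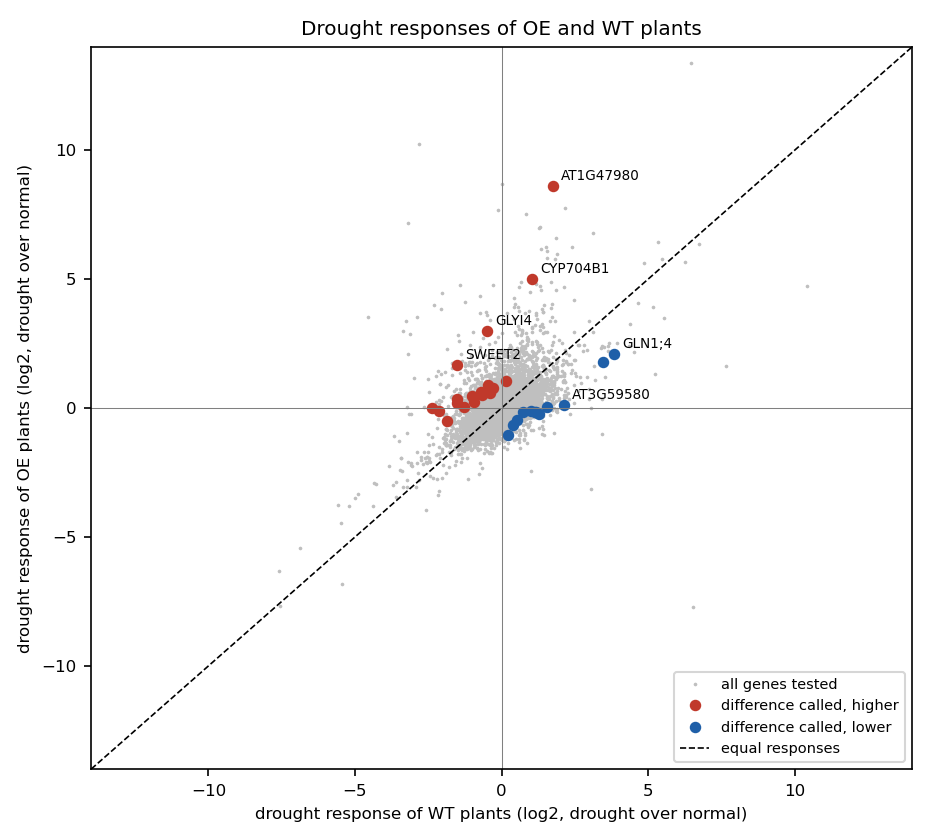
Drought response of OE plants (vertical axis) against that of WT plants (horizontal axis), both as log2 of drought over normal watering, for the 19259 genes tested, with the 31 genes called for the difference in colour. The 19 genes called higher lie above the dashed line of equal responses and the 12 called lower lie below it.

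The genes called higher were mostly genes that were lower in droughted than in watered WT plants and were not lower in droughted OE plants. The WT response was below 0 in 16 of the 19 and the OE response above 0 in 17. For 5 of the 19 the drought response was called in both genotypes with opposite signs, for 2 in both with the same sign, for 7 in WT and for 5 in OE. Read between genotypes, 18 of the 19 were lower in OE than in WT plants with normal watering and all 19 were higher in OE under drought. The gap between genotypes was called for 12 of the 19 under drought, where 0.296% of all genes were called, and for 3 with normal watering, where 0.389% were called. These counts rest on the same libraries as the calls and are given as a description.

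**Figure D2:**
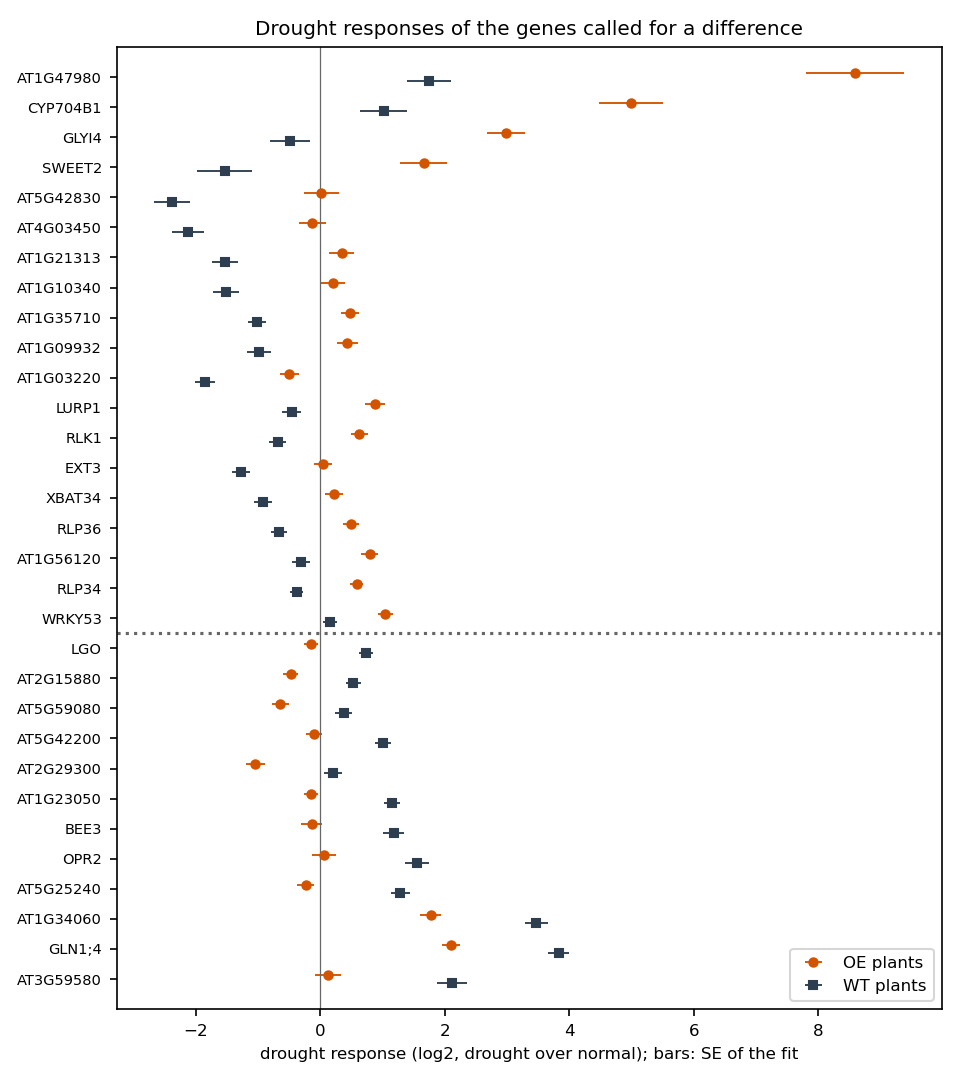
Drought responses (log2, drought over normal watering, with the standard error of the fit) of OE plants (circles) and WT plants (squares) for the 31 genes called for the difference, ordered by its size. The 19 genes above the dotted line were called higher in OE plants and the 12 below it lower.

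Promoters of 4 called genes are shown because the overexpressed protein belongs to a family that binds the W-box, and these promoters hold W-box letters and overlap no other annotated gene. Each is the 300 bases before the annotated gene start in the TAIR10.1 assembly of RefSeq, read on the gene's own strand, and capitals mark TTGACC or TTGACT on either strand. The window of WRKY53 is chr4:12393983-12394282 (minus strand), with matches 219 and 71 bases before the start. That of GLYI4 is chr1:5290282-5290581 (plus strand), with matches at 236 and 126 bases. That of RLK1 is chr5:24501771-24502070 (minus strand), with matches at 126 and 102 bases, and that of GLN1;4, called lower, is chr5:5424750-5425049 (minus strand), with 1 match at 141 bases.
WRKY53: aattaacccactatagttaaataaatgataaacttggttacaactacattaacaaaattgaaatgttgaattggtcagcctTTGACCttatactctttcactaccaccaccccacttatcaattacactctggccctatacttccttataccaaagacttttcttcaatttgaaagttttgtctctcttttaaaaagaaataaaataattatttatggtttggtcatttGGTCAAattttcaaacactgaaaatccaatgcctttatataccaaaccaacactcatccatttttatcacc
GLYI4: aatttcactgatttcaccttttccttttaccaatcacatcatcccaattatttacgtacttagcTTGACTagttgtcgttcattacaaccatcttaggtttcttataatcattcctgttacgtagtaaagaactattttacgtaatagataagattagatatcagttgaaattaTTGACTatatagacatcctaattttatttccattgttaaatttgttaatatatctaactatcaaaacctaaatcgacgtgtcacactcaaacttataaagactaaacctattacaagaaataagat
RLK1: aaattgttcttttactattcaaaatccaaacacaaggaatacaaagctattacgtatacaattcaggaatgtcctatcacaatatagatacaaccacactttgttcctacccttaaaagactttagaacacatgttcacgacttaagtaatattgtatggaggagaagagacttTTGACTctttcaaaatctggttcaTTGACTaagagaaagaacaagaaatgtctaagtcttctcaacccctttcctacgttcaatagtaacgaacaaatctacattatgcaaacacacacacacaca
GLN1;4: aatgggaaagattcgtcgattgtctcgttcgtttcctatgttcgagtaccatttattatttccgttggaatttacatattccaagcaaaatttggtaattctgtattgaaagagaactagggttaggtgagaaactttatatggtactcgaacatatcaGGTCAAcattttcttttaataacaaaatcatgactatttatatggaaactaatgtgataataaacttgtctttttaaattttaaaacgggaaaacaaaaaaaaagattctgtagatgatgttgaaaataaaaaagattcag
The W-box letters were found in 11 of the 19 promoters of genes called higher (57.9%) and in 3 of the 12 of genes called lower (25%), against 31.4% of the 19138 promoters of tested genes. The core of the abscisic acid response element, ACGTG, was in 31.6% of promoters called higher, 16.7% of those called lower and 25.8% of all. The drought element core CCGAC was in 21.1%, 8.33% and 15.0% of the same sets, and the G-box CACGTG, which contains the letters ACGTG, in 5.26%, 0% and 7.88%. A match is a description of letters and not a binding site, and no test was made of these shares.

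AT1G35710, RLK1, RLP36, RLP34 and AT1G56120, all called higher, are receptors of the cell surface by name or annotation. They were grouped after their values were seen. The share of such genes among all tested was not counted, so their number says nothing about the called genes as a set. AT1G35710, a kinase with leucine-rich repeats by annotation, stood at 618 and 540 CPM in the droughted OE libraries and 412 and 416 CPM in the watered OE libraries. In WT it stood at 299 and 256 CPM under drought and 500 and 618 CPM with water. Neither genotype's libraries overlapped between conditions, with drought the higher condition in OE and the lower one in WT. It rose by 0.48 ± 0.15 in OE (SE of the fit, n = 2 per group) and fell by 1.01 ± 0.15 in WT, a difference of 1.5 ± 0.21 on the log2 scale (edgeR adjusted p = 0.0099). RLK1, a receptor-like kinase whose promoter is printed above, stood at 30.2 and 33.4 CPM in the droughted OE libraries and 21.7 and 19.4 CPM in the watered OE libraries. Its WT levels were 21.4 and 17.5 CPM under drought and 31.6 and 30.8 CPM with water. The droughted OE and the watered WT libraries were thus at like levels, and the other 4 libraries lower. The difference for RLK1 was 1.32 ± 0.19 (edgeR adjusted p = 0.0125), with a rise of 0.63 in OE and a fall of 0.69 in WT, both called.

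The same crossing was seen for RLP36 and RLP34, members of the receptor-like protein family, which carry leucine-rich repeats but no kinase. RLP36 stood at 20.5 and 20.25 CPM in the droughted OE libraries and 14.3 and 14.7 CPM in the watered OE libraries. The WT libraries had 14.6 and 14.2 CPM under drought and 23.4 and 22.1 CPM with water, so that the watered WT libraries were the highest. Its difference was 1.15 ± 0.18 (edgeR adjusted p = 0.0286). RLP34, with 99.5 and 107 CPM in the droughted OE libraries and 68.1 and 69.6 CPM in the watered OE libraries, differed by 0.96 ± 0.16 (edgeR adjusted p = 0.0286). WT plants had 72.0 and 62.0 CPM under drought and 89.1 and 85.2 CPM with water. For RLP34 the droughted OE libraries were above all others. It shares 94 bases with AT3G11000, whose own difference was 1.25 (adjusted p = 0.0773), and reads there cannot be assigned without strand. AT1G56120, another leucine-rich repeat kinase, rose in OE (0.80 ± 0.14) and had a response of -0.31 ± 0.14 in WT (edgeR adjusted p = 0.18), a difference of 1.1 ± 0.20 (edgeR adjusted p = 0.0378). Its droughted OE libraries stood at 28.7 and 30.8 CPM, above the 14.2 to 19.9 CPM of the other 6. RLP34, AT1G56120, XBAT34 and AT1G47980 fell outside the rule for naming genes and were chosen after their values were seen. Of the receptor-like protein family, a list made after the values were seen, 44 genes were tested. Of these, 2 were called higher, where 0.0987% of all genes were. At an unadjusted p under 0.05, 10 were higher (22.7%), against 5.73% of all genes. Near-identical relatives exist in these families, and how reads were divided among them is not known.

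WRKY53, a transcription factor known for promoting leaf senescence and for a part in defence, stood at 78.7 and 75.3 CPM in the droughted OE libraries and 36.2 and 38.2 CPM in the watered OE libraries. In WT it stood at 46.8 and 53.6 CPM under drought and 47.9 and 42.0 CPM with water, and those 4 libraries overlapped. It rose by 1.05 ± 0.12 in OE plants and had a response of 0.16 ± 0.12 in WT (edgeR adjusted p = 0.41), a difference of 0.89 ± 0.16 (edgeR adjusted p = 0.0447). Its call held in 2 of the 8 omissions, those of the second watered OE and the second watered WT library, with the difference between 0.79 and 0.99 in all 8, and limma on log2(FPKM + 1) gave an adjusted p of 0.0543. Its gene shares 341 bases with 3xHMG-box2, whose difference was 0.85 (edgeR adjusted p = 0.0599), and reads in that stretch cannot be told apart without strand. WRKY53 was the only one of 51 tested WRKY genes to be called; 9 were higher and 1 lower at an unadjusted p under 0.05, and the family's median difference was 0.16, or 0.07 without the first watered OE library and 0.08 with the flower gene level as a covariate. LURP1, named for its late induction by a downy mildew pathogen and needed for basal defence, stood at 378 and 415 CPM in the droughted OE libraries and 223 and 208 CPM in the watered OE libraries. Its WT levels were 293 and 199 CPM under drought and 325 and 350 CPM with water. Its OE libraries did not overlap, with drought higher, and neither did its WT libraries, with drought lower. The difference was 1.34 ± 0.22 (edgeR adjusted p = 0.0286).

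XBAT34, which bears the name of a family of ankyrin-repeat ubiquitin ligases, stood at 94.8 and 92.0 CPM in the droughted OE libraries and 67.3 and 92.5 CPM in the watered OE libraries. The WT libraries had 51.3 and 43.1 CPM under drought and 83.0 and 95.7 CPM with water. The droughted WT libraries were the lowest, and the OE libraries overlapped between conditions. The difference was 1.15 ± 0.21 (edgeR adjusted p = 0.0447). A pair of ankyrin repeat genes showed the same shape. AT4G03450 fell by 2.12 ± 0.25 in WT, to 2.26 and 1.70 CPM under drought, against 8.78 and 8.37 CPM with water, while its 4 OE libraries lay between 5.52 and 7.60 CPM. AT1G10340 fell by 1.51 ± 0.21 in WT, to 7.56 and 4.61 CPM, against 16.7 and 17.603 CPM with water, while its OE libraries lay between 13.0 and 18.6 CPM. The differences were 2.00 ± 0.33 and 1.71 ± 0.29 (edgeR adjusted p = 0.0286 for each).

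GLYI4, of the glyoxalase family that detoxifies methylglyoxal, stood at 11.0 and 8.39 CPM in the droughted OE libraries and 1.18 and 1.25 CPM in the watered OE libraries. WT plants had 2.16 and 1.86 CPM under drought and 3.51 and 2.12 CPM with water. The droughted OE libraries were far above the other 6. GLYI4 rose by 2.98 ± 0.31 in OE and had a response of -0.49 ± 0.32 in WT (edgeR adjusted p = 0.36), a difference of 3.47 ± 0.45 (edgeR adjusted p = 0.00866). Only omission of the second droughted WT library, among the 8, ended its call. SWEET2, a sugar transporter of the vacuole membrane, stood at 6.99 and 4.36 CPM in the droughted OE libraries and 1.18 and 2.396 CPM in the watered OE libraries. In WT it stood at 1.47 and 0.647 CPM under drought and 2.93 and 3.08 CPM with water. SWEET2 was highest in droughted OE and lowest in droughted WT plants on average, a difference of 3.20 ± 0.58 (edgeR adjusted p = 0.0447). Of 12 tested SWEET genes, a list made after the values were seen, SWEET2 was the only one called.

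EXT3, an extensin that cross-links the cell wall, fell by 1.28 ± 0.15 in WT, to 95.7 and 89.1 CPM under drought, against 252 and 195 CPM with water. In OE it stood at 126 and 119 CPM under drought and 104 and 135 CPM with water, with a response of 0.04 ± 0.15 (edgeR adjusted p = 0.88). The difference was 1.31 ± 0.21 (edgeR adjusted p = 0.0286). AT1G21313, which differed by 1.88 ± 0.29, lies inside EXT3 on the opposite strand and shares all of its 522 bases with it (chromosome 1, 7453735 to 7454256, TAIR10.1), so the reads of the 2 genes cannot be told apart and they may count as 1 signal. AT1G03220, an aspartyl protease by annotation, fell in both genotypes, by 0.50 ± 0.15 in OE and by 1.86 ± 0.16 in WT. It stood at 17.59 and 18.9 CPM in the droughted OE libraries and 22.3 and 29.2 CPM in the watered OE libraries, against 8.64 and 8.90 CPM in the droughted WT libraries and 34.7 and 29.0 CPM in the watered WT libraries. The difference was thus one of size and not of direction, at 1.36 ± 0.22 (edgeR adjusted p = 0.0286). AT1G09932, a phosphoglycerate mutase family gene, differed by 1.42 ± 0.26 and AT5G42830, an acyltransferase family gene, by 2.4 ± 0.41. Both fell in WT, and AT5G42830 reached 2.26 and 1.13 CPM there under drought, against 8.78 and 8.56 CPM with water.

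CYP704B1, a cytochrome P450 that makes building blocks of the pollen wall, stood at 7.397 and 6.21 CPM in the droughted OE libraries and 0 and 0.417 CPM in the watered OE libraries. Its WT levels were 3.34 and 2.99 CPM under drought and 1.66 and 1.44 CPM with water. Drought was higher than normal watering in both genotypes, and the watered OE libraries were the lowest of all. The difference was 3.97 ± 0.71 (edgeR adjusted p = 0.0402). It was the 1 gene called of 13 tested anther genes of 18 listed, where 0.0987% of all genes were called higher. At an unadjusted p under 0.05, 6 of the 13 were higher (46.2%), against 5.73% of all genes, and the list's median difference was 1.82. These 13 genes summed to 152 and 122 CPM in the droughted OE libraries and 32.8 and 47.4 CPM in the watered OE libraries, and to 79.8 and 102 CPM in the droughted WT libraries and 64.8 and 48.8 CPM in the watered WT libraries. In the first watered OE library 8 of the 13 were at 0, and without that library the median was 0.78, against 4.75 without the second watered OE library and 0.26 with the flower gene level as a covariate. AT1G47980, annotated as a desiccation-like protein, had 0 counts in both watered OE libraries and 4.27 and 4.52 CPM in the droughted OE libraries, which is at least 14.4-fold higher against a floor of 3 counts per library. The WT libraries had 3.34 and 3.56 CPM under drought and 1.27 and 0.770 CPM with water. Its watered OE libraries were thus the only ones without a count.

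**Figure D3:**
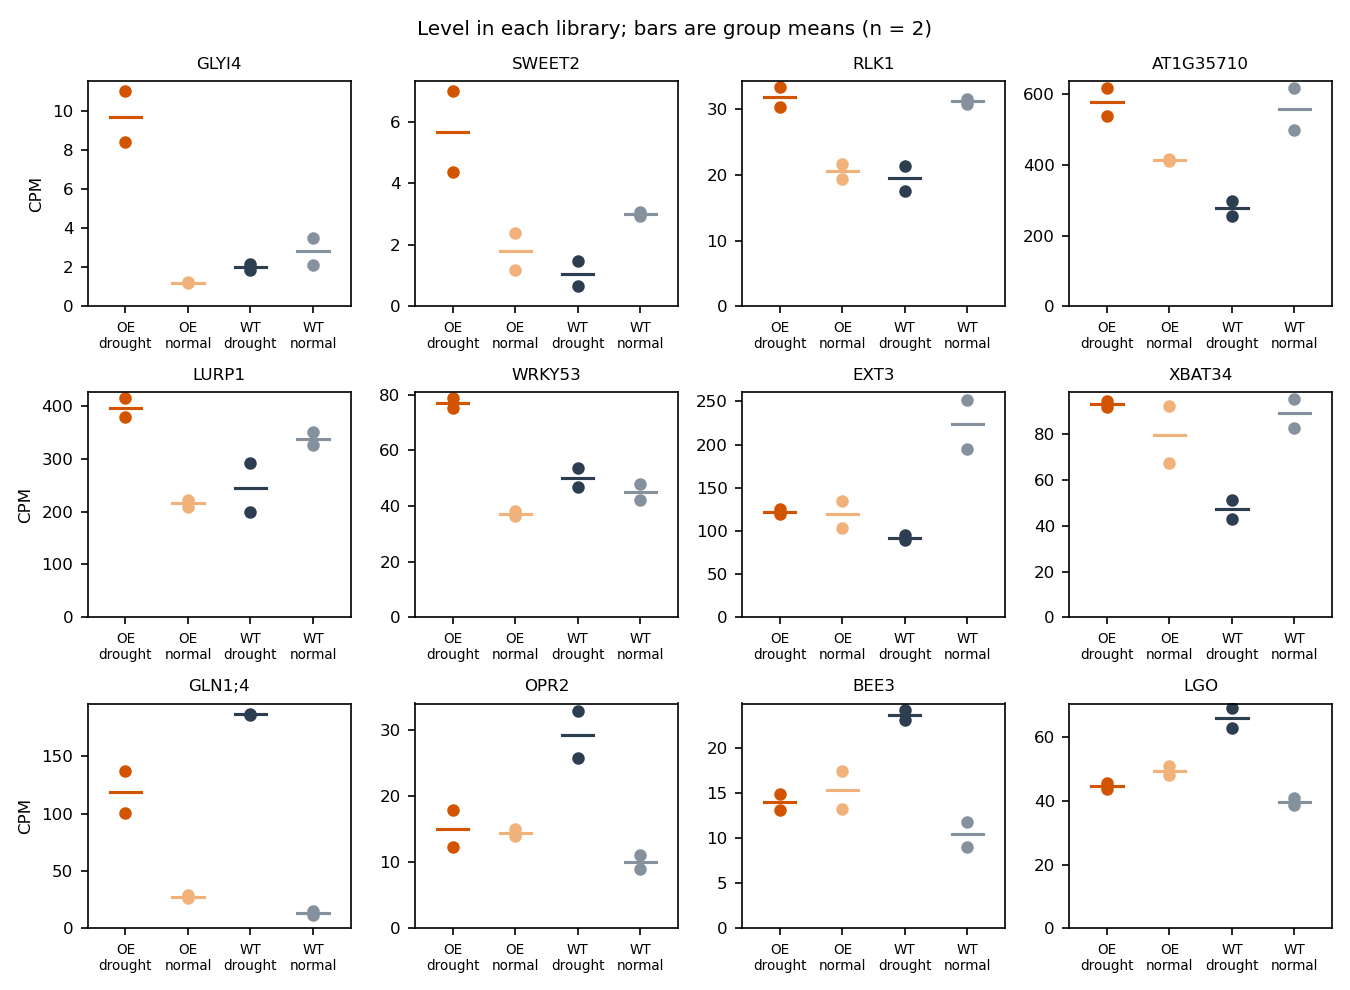
Level in CPM (vertical axes, from 0) in each of the 8 libraries for 8 genes called higher and 4 called lower, in the order droughted OE, watered OE, droughted WT and watered WT, with points for libraries and bars for group means. GLYI4 and WRKY53 stand out in droughted OE plants, whereas XBAT34 is lowest in droughted WT plants and GLN1;4, OPR2, BEE3 and LGO are highest there.

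All 12 genes called lower had a WT response above 0, and in all 12 the gap between genotypes was above 0 with normal watering and below 0 under drought. The drought response was called in WT for 7, in OE for 2, in both with the same sign for 2 and in both with opposite signs for 1. OE against WT was called for 4 of them under drought, where 0.296% of all genes were called, and for 6 with normal watering, where 0.389% were. Here too the signs and counts rest on the same libraries as the calls and are given as a description.

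GLN1;4, a cytosolic glutamine synthetase, stood at 137 and 101 CPM in the droughted OE libraries and 26.7 and 28.8 CPM in the watered OE libraries. WT plants had 186 and 187 CPM under drought and 14.7 and 11.5 CPM with water. The gene rose in both genotypes, and OE libraries were higher than WT with water and lower than WT under drought. It rose by 2.1 ± 0.15 in OE and by 3.83 ± 0.17 in WT, a difference of -1.73 ± 0.22 (edgeR adjusted p = 0.00866). Of the 8 omissions, only that of the second droughted WT library ended its call. AT3G59580, of the RWP-RK family that includes nitrate-responsive regulators, stood at 5.59 and 6.37 CPM in the droughted OE libraries and 5.23 and 5.73 CPM in the watered OE libraries. In WT it stood at 8.25 and 9.06 CPM under drought and 1.66 and 2.31 CPM with water. The OE libraries overlapped between conditions and lay between the WT groups, and the difference was -1.99 ± 0.33 (edgeR adjusted p = 0.0286). AT1G34060, a pyridoxal phosphate-dependent transferase by annotation, rose by 1.77 ± 0.17 in OE and by 3.47 ± 0.18 in WT, with 51.5 and 37.6 CPM in the droughted OE libraries and 75.2 and 88.3 CPM in the droughted WT libraries. Its difference was -1.70 ± 0.25 (edgeR adjusted p = 0.0235).

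BEE3, a transcription factor induced by brassinosteroids, stood at 13.1 and 14.8 CPM in the droughted OE libraries and 17.5 and 13.2 CPM in the watered OE libraries. Its WT levels were 24.2 and 23.1 CPM under drought and 11.8 and 9.04 CPM with water. BEE3 rose in WT and its OE libraries overlapped, and the difference was -1.32 ± 0.24 (edgeR adjusted p = 0.0422). LGO, an inhibitor of cyclin-dependent kinases that promotes endoreduplication, stood at 45.5 and 43.8 CPM in the droughted OE libraries and 50.8 and 48.0 CPM in the watered OE libraries. The WT libraries had 69.1 and 63.0 CPM under drought and 40.8 and 38.7 CPM with water. The droughted WT libraries were above the other 6, and the difference was -0.88 ± 0.15 (edgeR adjusted p = 0.0326), the smallest in size of the 31. LGO shares 375 bases with AT3G10527, whose difference was -0.97 (edgeR adjusted p = 0.0671).

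OPR2, a reductase related to the enzyme of jasmonate synthesis, stood at 17.9 and 12.3 CPM in the droughted OE libraries and 13.9 and 15.1 CPM in the watered OE libraries. WT plants had 25.8 and 32.9 CPM under drought and 11.1 and 8.95 CPM with water. OPR2 rose in WT, and its difference was -1.5 ± 0.27 (edgeR adjusted p = 0.0481). It shares 216 bases with its neighbour OPR1, whose difference was -0.69 (edgeR adjusted p = 0.232). AT5G25240, annotated as stress induced, and AT1G23050, a hydroxyproline-rich glycoprotein, rose in WT by 1.29 ± 0.15 and 1.15 ± 0.12, with responses of -0.23 ± 0.14 and -0.15 ± 0.12 in OE. Their differences were -1.52 ± 0.21 and -1.30 ± 0.17 (edgeR adjusted p = 0.00928 and 0.00866), and only omission of the second droughted OE library, among the 8, ended these calls. AT2G15880, a leucine-rich repeat gene, fell in OE and rose in WT, by 0.47 ± 0.12 and 0.53 ± 0.12. The remaining 3 genes called lower were AT2G29300 (-1.25), AT5G42200 (-1.11) and AT5G59080 (-1.02).

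None of the 26 tested genes of the drought and abscisic acid list was called for the difference by edgeR, while DESeq2 called 6 lower and limma none. At an unadjusted p under 0.05 in edgeR, 11 were lower (42.3%) and 1 higher (3.85%), against 6.77% and 5.73% of all genes. The list's median difference was -0.38, with median responses of 0.05 in OE and 0.43 in WT plants. The median gap of OE over WT was 0.38 with normal watering, when 6 of the 26 were called higher (0.296% of all genes were), and 0.00 under drought, when none was. The median difference was -0.07 without the second watered WT library and -0.58 without the first. COR15A, which protects chloroplast membranes in the cold, came closest to a call in the main edgeR fit. It stood at 216 and 194 CPM in the droughted OE libraries and 596 and 350 CPM in the watered OE libraries, against 270 and 230 CPM in the droughted WT libraries and 147 and 146 CPM in the watered WT libraries. The watered OE libraries were the highest and the 2 of them differed widely. Its difference was -1.97 ± 0.30 (edgeR adjusted p = 0.0502), with a fall of 1.21 in OE and a rise of 0.77 in WT, both called. COR15B stood at -1.36 ± 0.28 (edgeR adjusted p = 0.0786), RD29A at -0.83 ± 0.18 (0.0703) and KIN2 at -1.05 ± 0.25 (0.0924). Other fixed markers of drought and abscisic acid were further from a call. RAB18 stood at -0.65 ± 0.47 (edgeR adjusted p = 0.619) and RD22 at -0.30 ± 0.21 (0.599). NCED3, an enzyme of abscisic acid synthesis, stood at -0.51 ± 0.28 (edgeR adjusted p = 0.485). P5CS1, of proline synthesis, stood at 0.41 ± 0.25 (edgeR adjusted p = 0.562).

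**Figure D4:**
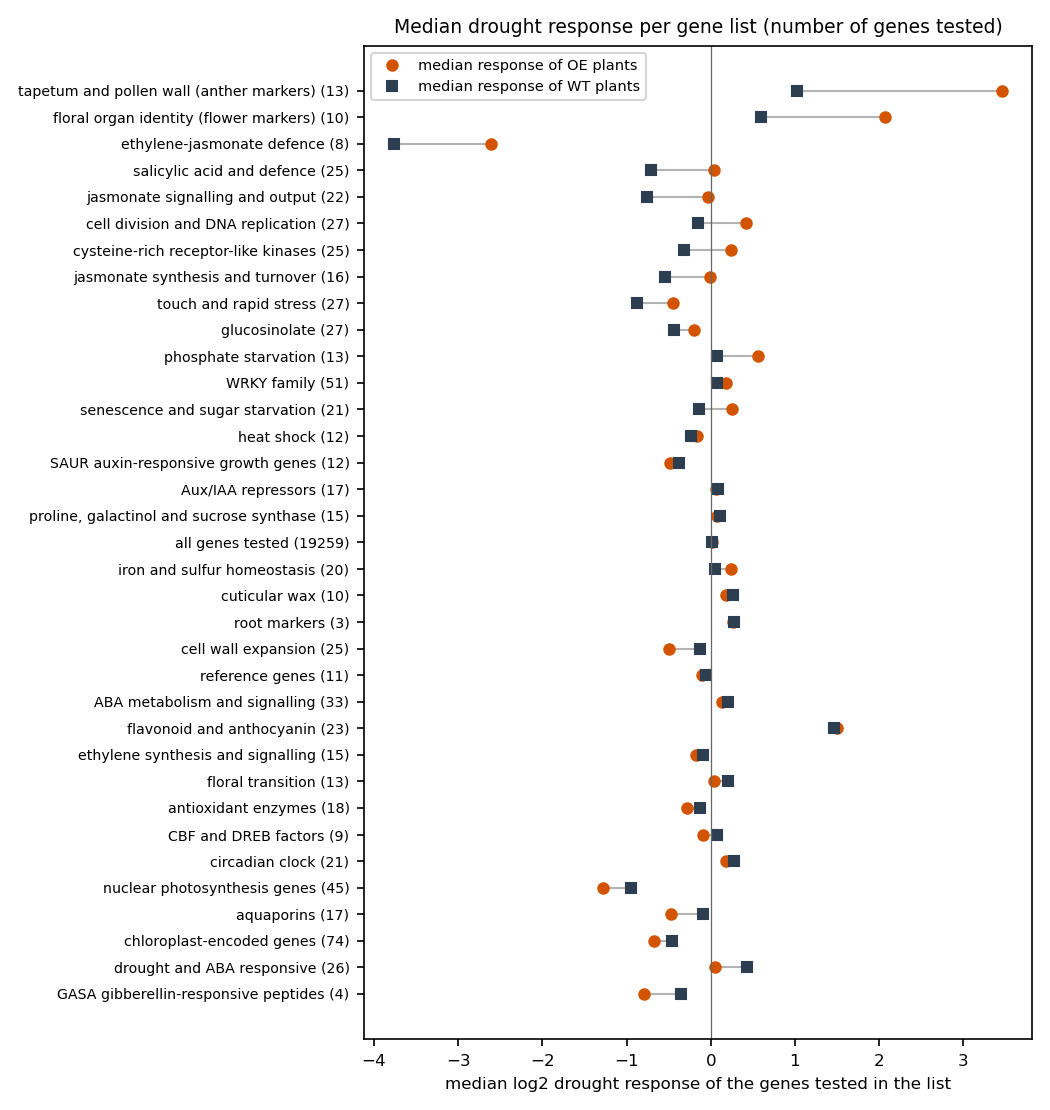
Median log2 drought response of OE plants (circles) and WT plants (squares) for the tested genes of each list, with the number tested in brackets, ordered by the median difference of the responses. Salicylic acid, jasmonate and cell division genes lie to the right in OE plants relative to WT, and drought and abscisic acid genes lie to the left.

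Salicylic acid and defence genes had a positive difference in all 25 tested members, where 49.0% of all genes tested did, although none was called by edgeR or limma and 3 by DESeq2. At edgeR's unadjusted p under 0.05, 10 of the 25 (40.0%) were higher, against 5.73% of all genes, and none was lower. Their median response was 0.04 in OE and -0.71 in WT, with a median difference of 0.66. Under drought 8 of the 25 fell in WT, against 7.37% of all genes called lower there, and none was called in OE. The examples from lists without a call have the smallest p in their list and were chosen after their values were seen. EDS1, a hub of immune signalling, stood at 29.0 and 33.5 CPM in the droughted OE libraries and 27.1 and 33.97 CPM in the watered OE libraries, against 21.1 and 20.3 CPM in the droughted WT libraries and 30.3 and 33.6 CPM in the watered WT libraries. The droughted WT libraries were the only low ones, and the difference was 0.66 ± 0.19 (edgeR adjusted p = 0.168). CBP60G and SARD1, transcription factors that turn on salicylic acid synthesis, differed by 0.60 ± 0.18 and 0.61 ± 0.19 (edgeR adjusted p = 0.171 and 0.206). PR1, the classical salicylic acid marker, stood at 8.63 and 17.8 CPM in the droughted OE libraries and 30.7 and 21.3 CPM in the watered OE libraries, against 13.8 and 0.809 CPM in the droughted WT libraries and 91.6 and 37.7 CPM in the watered WT libraries. PR1 varied so widely within groups that its difference of 2.25 ± 1.54 did not pass (edgeR adjusted p = 0.644). WRKY70 stood at 0.50 ± 0.21 (edgeR adjusted p = 0.362). The list's mean log2 level was 3.79 in the second droughted WT library and 4.39 in the first, and without the first the median difference was 1.14.

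Of 25 tested cysteine-rich receptor-like kinases, a family with roles in immunity and cell death, none was called by edgeR or limma and 1 was called higher by DESeq2. At an unadjusted p under 0.05, 9 were higher (36.0%) and 1 lower (4.0%), against 5.73% and 6.77% of all genes. The family's median difference was 0.45, or 0.27 with the flower gene level as a covariate. CRK7 stood at 14.1 and 16.1 CPM in the droughted OE libraries and 7.90 and 6.88 CPM in the watered OE libraries, against 8.15 and 6.31 CPM in the droughted WT libraries and 13.1 and 7.98 CPM in the watered WT libraries. The droughted OE libraries were the highest, and the difference was 1.58 ± 0.31 (edgeR adjusted p = 0.0605). CRK21 went the other way, at -1.1 ± 0.30 (edgeR adjusted p = 0.143). Many of these genes lie in tandem and may share reads.

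Genes of jasmonate signalling and output had a positive difference in 18 of 22 tested members (81.8%), where 49.0% of all genes tested did. Of these 22, 7 were higher (31.8%) and none lower at an unadjusted p under 0.05, against 5.73% and 6.77% of all genes. None of the 22 was called by edgeR or limma, and 2 were called higher by DESeq2. The median response was -0.04 in OE and -0.75 in WT, with 3 of the 22 called lower in OE, where 9.92% of all genes were, and 9 in WT, where 7.37% were. The median gap of OE over WT with normal watering was -0.59. The first watered WT library, which stood apart in the principal component analysis, had the highest mean level of these genes, and without it the list's median difference was 0.30, against 0.59 with all libraries and 0.39 with the flower gene level as a covariate. JAZ1, a repressor induced by jasmonate, stood at 57.4 and 69.3 CPM in the droughted OE libraries and 73.4 and 90.4 CPM in the watered OE libraries, against 39.6 and 50.3 CPM in the droughted WT libraries and 125 and 96.1 CPM in the watered WT libraries. The watered WT libraries were the highest and the droughted WT libraries the lowest, with a difference of 0.92 ± 0.23 (edgeR adjusted p = 0.135). VSP2, a storage protein and jasmonate marker, differed by 1.56 ± 0.50 (edgeR adjusted p = 0.325). None of 16 genes of jasmonate synthesis and turnover was called by edgeR, DESeq2 or limma. At an unadjusted p under 0.05 in edgeR, 2 were higher (12.5%), against 5.73% of all genes. Among these 2 was LOX2, which makes a jasmonate precursor, at 0.59 ± 0.26 (edgeR adjusted p = 0.381). The median of the 16 was 0.42, and 0.20 without the second droughted OE library or 0.25 without the first watered OE library. It was 0.10 with the flower gene level as a covariate. The 8 ethylene-jasmonate defence genes all had positive differences and none passed, adjusted or not. Their median was 1.15, and 0.39 without the first watered WT, 0.56 without the second droughted OE and 0.62 without the second droughted WT library. PDF1.2A, a defensin of this list, fell by 3.50 ± 0.62 in OE and by 5.00 ± 0.66 in WT, a difference of 1.5 ± 0.82 (edgeR adjusted p = 0.552).

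Cell division and DNA replication genes had a positive difference in 26 of 27 tested members (96.3%), where 49.0% of all genes tested did. At an unadjusted p under 0.05, 18 of the 27 (66.7%) were higher, against 5.73% of all genes. None of the 27 was called by edgeR, DESeq2 or limma. Their median response was 0.42 in OE, with 7 called higher there against 6.77% of all genes, and -0.15 in WT, with none called. Averaged over the list, the log2 level in OE plants was 3.928 and 3.786 under drought and 3.331 and 3.481 with water. In WT plants it was 3.547 and 3.511 under drought and 3.505 and 3.803 with water. The OE libraries did not overlap between conditions, with drought higher, while the watered WT libraries lay on either side of the droughted WT ones. CYCA1;1, a cyclin of the S and G2 phases, stood at 15.0 and 10.8 CPM in the droughted OE libraries and 7.90 and 5.73 CPM in the watered OE libraries, against 8.25 and 9.06 CPM in the droughted WT libraries and 9.95 and 12.02 CPM in the watered WT libraries. Its groups did not overlap within either genotype, and its difference was 1.25 ± 0.29 (edgeR adjusted p = 0.0843). MCM6 and PCNA1, parts of the replication machinery, differed by 0.92 ± 0.24 and 0.90 ± 0.24 (edgeR adjusted p = 0.118 and 0.139). In OE plants the flower gene sums given above were also higher under drought. In WT plants those sums were also higher under drought, by less than in OE plants, and the mean level of this list was not higher. With the flower gene level as a covariate the list's median was 0.40, against 0.58 without, and the cause was not tested.

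**Figure D5:**
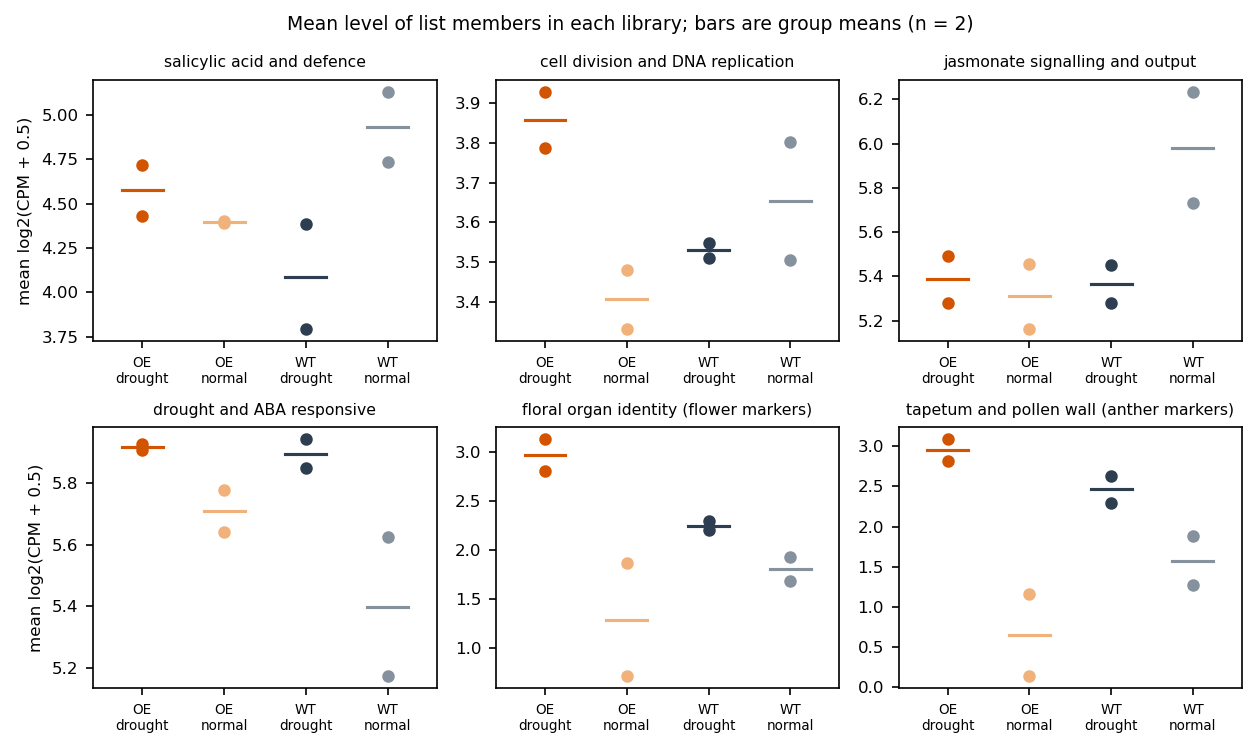
Mean log2(CPM + 0.5) of the tested members of 6 gene lists in each of the 8 libraries, in the order droughted OE, watered OE, droughted WT and watered WT, with bars for group means. Flower and anther genes are highest in droughted OE libraries, cell division genes are highest in 1 droughted OE library and next in the second watered WT library, salicylic acid genes are lowest in droughted WT libraries, and jasmonate output genes are highest in watered WT libraries.

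Of 27 tested touch and rapid stress genes, a list that also holds WRKY53, 8 were higher (29.6%) and 1 lower (3.7%) at an unadjusted p under 0.05. Among all genes 5.73% were higher and 6.77% lower, and the list's median was 0.38. That median was 0.11 without the first and 0.73 without the second watered OE library, 0.59 without the first and 0.22 without the second droughted WT library, and -0.12 with the flower gene level as a covariate. The floral organ identity genes themselves had a median difference of 1.64, with 6 of 10 higher and 1 lower at an unadjusted p under 0.05 and none called by edgeR, DESeq2 or limma. Without the first watered OE library that median was 1.15 and without the second 2.73. AP1, which sets the identity of flowers and sepals, stood at 14.1 and 8.95 CPM in the droughted OE libraries and 1.38 and 2.60 CPM in the watered OE libraries, against 4.42 and 7.93 CPM in the droughted WT libraries and 4.97 and 3.17 CPM in the watered WT libraries. The droughted OE libraries were the highest and the watered OE libraries the lowest (difference 1.91 ± 0.57, edgeR adjusted p = 0.224). FLC, a repressor of flowering, rose in WT, to 18.6 and 23.4 CPM under drought, against 8.29 and 11.0 CPM with water. In OE it stood at 9.86 and 9.36 CPM under drought and 13.7 and 9.06 CPM with water, and its difference was -1.38 ± 0.29 (edgeR adjusted p = 0.0695). FLC was called lower by DESeq2 (adjusted p = 0.0404) and by edgeR without a filter on low counts (adjusted p = 0.0157).

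Photosynthesis genes fell in both genotypes. Of 45 nuclear genes 44 were called lower in droughted OE plants, where 9.92% of all genes were, and 38 in droughted WT plants, where 7.37% were. None was called for the difference by edgeR, DESeq2 or limma. At an unadjusted p under 0.05, 1 was lower (2.22%), against 6.77% of all genes. The difference was negative in 41 of the 45 and positive in 4 (8.89%), where 49.0% of all genes tested had a positive one. The median difference of -0.29 was -0.07 or -0.47 when the first or the second droughted WT library was left out. It was -0.18 without the first watered WT library. LHCB1.3, a light-harvesting protein (CAB1 in the annotation), fell by 1.39 ± 0.27 in OE and by 1.34 ± 0.27 in WT, a difference of -0.05 ± 0.37 (edgeR adjusted p = 0.981). Of 74 tested chloroplast-encoded genes none was called by edgeR or DESeq2, and limma called 1 higher. At an unadjusted p under 0.05 in edgeR, 2 were higher (2.7%) and 18 lower (24.3%), against 5.73% and 6.77% of all genes. The list's median of -0.38 was -0.04 or -0.63 when the first or the second droughted WT library was left out. Of 17 aquaporins, water channels, none was called by edgeR or limma, and DESeq2 called 1 lower. At an unadjusted p under 0.05 in edgeR, 7 were lower (41.2%) and 1 higher (5.88%), against 6.77% and 5.73% of all genes. The aquaporin median of -0.32 was -0.17 without the first droughted WT library. PIP1;5, a water channel of the plasma membrane, stood at 85.3 and 98.3 CPM in the droughted OE libraries and 198 and 165 CPM in the watered OE libraries, against 124 and 99.6 CPM in the droughted WT libraries and 127 and 138 CPM in the watered WT libraries. The watered OE libraries were the highest, and the difference was -0.74 ± 0.19 (edgeR adjusted p = 0.122). TT4, the first enzyme of flavonoid synthesis, differed by -0.11 ± 0.66 (edgeR adjusted p = 0.977) and its list, of 23 genes, had a median of -0.11, between -0.44 and 0.15 without 1 library. Of 21 senescence genes only GLN1;4 was called by edgeR, as lower, while DESeq2 and limma each called 1 higher and 1 lower. At an unadjusted p under 0.05 in edgeR, 4 were higher (19.0%) and 1 lower (4.76%), against 5.73% and 6.77% of all genes. The senescence median was 0.12, between 0.06 and 0.34 without 1 library. SAG12, a protease of late senescence, had 185 and 58.6 CPM in the droughted OE libraries and no count in the watered OE libraries, against 6.19 and 4.45 CPM in the droughted WT libraries and 0.0975 and 0 CPM in the watered WT libraries. SAG12 was seen almost only under drought, and its difference did not pass (edgeR adjusted p = 0.904). The other lists had medians between -0.45, for 4 GASA peptide genes, and 0.25, for 27 glucosinolate genes, and edgeR called no member. None of the 7 seed markers passed the filter on low counts.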

How the data were processed

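Per the file headers, the deposited tables, 1 for each of the 8 libraries, hold an unnormalized expected count and an FPKM value for every listed gene. STAR, HISAT2 2.0.5, featureCounts, edgeR and the TAIR10 build are listed per the submitters' processing notes, without role or order. Strand use in counting is not given in the sources used here. Genes absent from a library's table counted as 0. In all, 24132 genes were listed in any library, and 99.2% of them matched the TAIR10.1 annotation.

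Expected counts were rounded and fitted in R 4.3.3 with edgeR 4.0.16 (filterByExpr at a minimum count of 10, TMM, robust quasi-likelihood, 1 mean per group, 4 residual degrees of freedom, biological coefficient of variation 10.2%). Tests were two-sided, with Benjamini-Hochberg adjustment over the 19259 genes tested. The SE is the size of the log2 change divided by the square root of F. Deposited FPKM values served as an alternative with limma 3.58.1, on log2(FPKM + 1) and log2(FPKM + 0.1), and DESeq2 1.42.0 as another. Scripts were tested on simulated counts.

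Named are, in each direction, the 12 called genes with the largest difference among those with a group mean of at least 5 CPM, the 6 called genes with the smallest p, up to 3 called genes per list, and 18 fixed markers. Grouping followed the sample titles. The contrast, the 35 gene lists and the markers were chosen with earlier results of these data known; 2 further families were added after values were seen. Lists are described by counts and medians, with no test. Alternatives were other scaling, filters, tools and units, a replicate block, leaving out each library, and a flower gene covariate.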

Additional observations from a re-analysis of the deposited data

Results flagged for a closer look

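The drought response differed between OE and WT plants in an interaction test (edgeR, adjusted p under 0.05) for 31 genes, which is why each is listed here with its log2 difference, OE minus WT. The drought response was higher in OE plants for AT1G47980 (6.84), CYP704B1 (3.97), GLYI4 (3.47), SWEET2 (3.20), AT5G42830 (2.4), AT4G03450 (2.00), AT1G21313 (1.88), AT1G10340 (1.71), AT1G35710 (1.5) and AT1G09932 (1.42). The response was also higher for AT1G03220 (1.36), LURP1 (1.34), RLK1 (1.32), EXT3 (1.31), RLP36 (1.15), XBAT34 (1.15), AT1G56120 (1.1), RLP34 (0.96) and WRKY53 (0.89). The response, not the level, was lower in OE plants for AT3G59580 (-1.99), GLN1;4 (-1.73), AT1G34060 (-1.70), AT5G25240 (-1.52), OPR2 (-1.5), BEE3 (-1.32), AT1G23050 (-1.30), AT2G29300 (-1.25), AT5G42200 (-1.11), AT5G59080 (-1.02), AT2G15880 (-1.0) and LGO (-0.88). The fitted value of AT1G47980, which had no count in the watered OE libraries, depends on the prior count and is no bound.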

How the results depend on the processing

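All 31 genes kept the sign of their difference under every alternative. The alternatives reuse the libraries in which the 31 were called, so kept signs were likely from the start and are a description only. RLE scaling gave 32 calls (19 higher, 13 lower) and a minimum count of 30 gave 31 (19 and 12). DESeq2 called 146 genes (72 higher, 74 lower; 30 of the 31 kept), and the fit without a filter on low counts 202 (87 and 115; all 31 kept). On log2(FPKM + 1) limma called 29 higher and 5 lower (18 kept) and on log2(FPKM + 0.1) 21 and 4 (17 kept). The median difference of all genes was 0.0873 and 0.102 on these scales, against -0.00653 in the main fit. With the flower gene level as a covariate, an alternative chosen after the data were seen, 0 genes were called higher and 1 lower, 1 in all, with 418 and 780 at an unadjusted p under 0.05; the cause was not tested.

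With a replicate block 44 genes were called (24 higher, 20 lower; 27 kept). Same-numbered libraries did not deviate together (correlations of -0.0684 to 0.0673), so the numbers were not taken to pair the libraries.

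Without 1 library the number called ranged between 2 and 326, higher between 1 and 234 and lower between 1 and 92. LHCB1.3 (CAB1) turned to 0.089 with limma on both FPKM scales and lay between -0.343 and 0.334 without 1 library, turning positive without the first droughted OE (0.123), second watered OE (0.12), first droughted WT (0.334) or first watered WT library (0.071). TT4 lay between -0.784 and 0.349, positive without the second droughted OE (0.173), second watered OE (0.19), second droughted WT (0.061) or second watered WT library (0.349).

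Of the other values of named genes, 550 kept direction and call, 187 lost the call and 21 gained one; of the list medians 509 moved by less than the spread between libraries and 35 by more. With 2 libraries a group, small differences at low levels were not detectable at this depth.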
